A study of Homo sapiens with 8 samples.

Results

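The sites described here are stretches of the genome where p53 chromatin immunoprecipitation with sequencing (ChIP-seq) gave a called peak in both libraries from doxorubicin-treated 293T cells and in neither library from vehicle-treated cells. The 293T line derives from human embryonic kidney and expresses the large T antigen of a simian virus, which holds p53 in a complex. The doxorubicin group (Dox) received 0.5 µg/ml for 24 h and the control group received phosphate-buffered saline (PBS) for the same time. Each group has 2 ChIP libraries made with the same p53 antibody, replicate 1 from cells at passage 3 and replicate 2 from cells at passage 5, so that replicate number and passage cannot be told apart. Peaks of the 4 deposited lists that shared at least 1 bp were merged into sites, and 1986 of 63890 sites (3.11%) met the rule. The sites were thus chosen by the presence of a peak in each library, a measured value, and every difference in presence, fold enrichment or p between the conditions at these sites follows from that choice and is described with no test.

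The protein p53 is a transcription factor that binds DNA as a tetramer, at a pair of short palindromic elements, and activates genes of cell cycle arrest, apoptosis and DNA repair. In unstressed cells it is kept low by the ubiquitin ligase MDM2. Doxorubicin is an anthracycline that intercalates into DNA and traps topoisomerase II, and the breaks activate kinases that free p53 from MDM2. In cells with large T antigen the DNA-binding domain of p53 is itself the surface that the viral protein holds. A peak list records where fragments piled up above a local background, which is not in itself proof of p53 on the DNA.

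The lists differ in length, which sets how easily a site can look exclusive. Dox replicates 1 and 2 had 46658 and 16642 peaks, against 11304 and 22978 for PBS replicates 1 and 2. Set side by side by passage, the Dox library had more peaks than the PBS library at passage 3 (46658 against 11304) and fewer at passage 5 (16642 against 22978). The list of Dox replicate 1 was the longest of the 4. All 4 lists were called at p under 0.05 with no limit on the q-value, the p adjusted over the genome. Sites in both Dox libraries numbered 8774 in all. Of these, 43.8% also had peaks in both PBS libraries (the 3840 sites of all 4 libraries, 6.01% of all sites), 27.9% in PBS replicate 2 alone, 5.70% in PBS replicate 1 alone and 22.6% in neither. The last share is the set described here. The mirror set, present in the PBS pair and absent from the Dox pair, held 593 sites (0.928% of all sites), which was 9.48% of the 6257 sites in both PBS libraries. The 1986 sites took up 4.31% of the peaks of Dox replicate 1 and 12.0% of the peaks of Dox replicate 2.

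The number of sites rested on which libraries were counted. With PBS replicate 2 left out, 4472 sites were in both Dox libraries and not in PBS replicate 1. With PBS replicate 1 left out, the number was 2495. With a single Dox library standing for the condition, 7040 sites had a peak in Dox replicate 2 and in neither PBS library, and 33155 had one in Dox replicate 1 and in neither PBS library. With the top 11304 peaks by p taken from each list and merged anew, 791 sites met the rule. The cut also removed peaks of PBS replicate 2, so sites outside the set described here could meet it.

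Peaks at these sites lay at or somewhat above the middle of their own lists and below those of the 4-library sites. The strongest peak of each site had a median enrichment of 2.63-fold in Dox replicate 1 (quartiles 2.37 and 3.06) and 2.78-fold in Dox replicate 2 (quartiles 2.48 and 3.09), where the fold is the authors' value at the summit over the caller's local background. Over the whole lists the medians were 2.47-fold in Dox replicate 1 and 2.78-fold in Dox replicate 2. At the sites held by all 4 libraries the medians were 3.67-fold in Dox replicate 1 and 3.24-fold in Dox replicate 2. The median −log10 p was 2.44 in Dox replicate 1, against a list median of 2.03. In Dox replicate 2 it was 2.43, the same value as the list median, which 18.2% of that list's peaks shared. At the sites of all 4 libraries the same medians were 4.08 and 3.21.

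Few of the peaks passed a limit adjusted over the genome. A q of at most 0.05 was reached at 34 sites (1.71%, 95% Wilson interval 1.23 to 2.38) in Dox replicate 1 and at 5 sites (0.252%, 0.108 to 0.588) in Dox replicate 2. Over the whole lists the shares were 3.65% (1703 of 46658 peaks) in Dox replicate 1 and 4.84% (806 of 16642) in Dox replicate 2. At the sites of all 4 libraries they were 31.8% and 17.4% in the same 2 libraries. Counted over both Dox libraries together, 2 of the 1986 sites reached that q in both, against 541 of all 63890 sites (0.847%). Sites without a peak in both Dox libraries cannot reach it in both, and 8774 of all sites had such peaks. The q was listed as 1, a −log10 q of 0, at 84.4% of the sites in Dox replicate 1 and at 93.1% in Dox replicate 2. At the sites of all 4 libraries these shares were 34.6% and 59.8% in the same 2 libraries. At the sites in both PBS libraries only they were 98.1% in PBS replicate 1 and 80.8% in PBS replicate 2, so high shares were not particular to the set.

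Spearman's correlation of −log10 p between the Dox replicates was 0.13 over the 1986 sites and 0.46 over the 3840 sites of all 4 libraries. The points share their libraries, and the 1986 sites span a narrower range of p, so the coefficients are descriptions. Dox replicate 1 had the smaller p at 1010 sites and Dox replicate 2 at 970. The values also came in steps: 352 sites had a −log10 p of 2.03 in Dox replicate 1 and 586 sites had 2.43 in Dox replicate 2, and the 1986 sites held 163 and 176 distinct values in the 2 libraries.

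**Figure D1:**
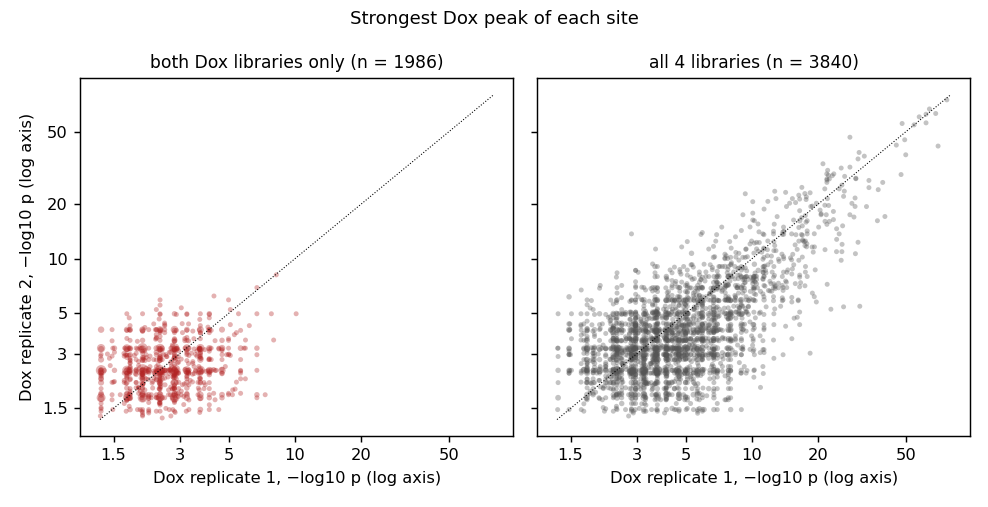
Strongest peak per site in Dox replicate 1 (horizontal, −log10 p, log axis) and Dox replicate 2 (vertical, −log10 p, log axis), for the 1986 sites in both Dox libraries only (left) and the 3840 sites of all 4 libraries (right). Points are pairs of values, larger where more sites share them, and the dotted line marks equality; the left panel stays in the lower corner in steps, with its highest value at 10.1 in Dox replicate 1.

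Exclusivity followed peak strength closely. Sites in both Dox libraries were binned by the −log10 p of their weaker library, and the share with no PBS peak was taken in each bin. It was 37.9% (735 of 1940 sites) between 1.3 and 2, and 30.9% (923 of 2986) between 2 and 2.5. It was 15.0% (169 of 1129) between 2.5 and 3, 9.24% (134 of 1450) between 3 and 4, 3.48% (22 of 633) between 4 and 5, and 0.472% (3 of 636) from 5 up. The mirror shares, sites in both PBS libraries with no Dox peak, went the same way, with 16.1% (374 of 2320) in the lowest bin and 0.256% (1 of 390) in the highest. The PBS shares were judged against the Dox lists, which together hold more peaks than the PBS lists, and are therefore not on one footing with the Dox shares. In the weakest Dox bin 25.1% of the sites were in all 4 libraries, and in the strongest 93.4%.

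**Figure D2:**
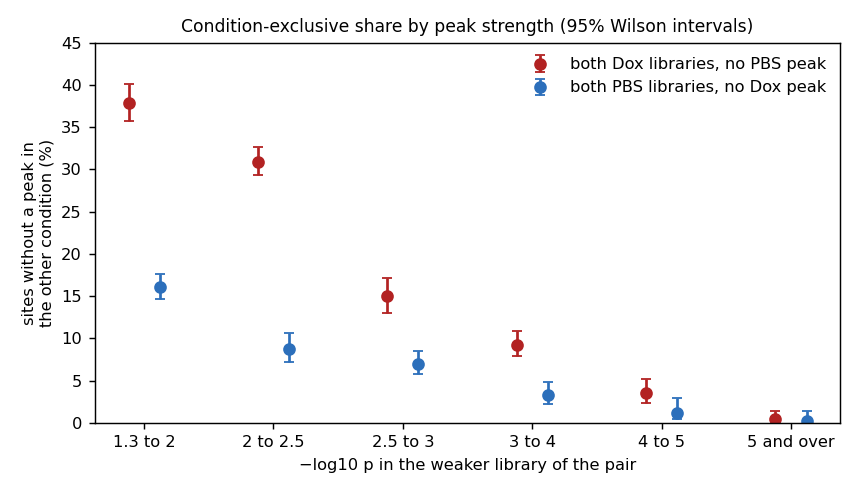
Share of sites without any peak in the other condition (vertical, per cent, with 95% Wilson intervals) by the −log10 p of the weaker library of the pair (horizontal, 6 bins), for sites in both Dox libraries (red) and in both PBS libraries (blue). The Dox shares go from 37.9% in the weakest bin to 0.472% in the strongest, and the PBS shares from 16.1% to 0.256%.

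The sites with the smallest p in their weaker Dox library were few and modest in height. The first lay on chromosome 4 from 190861745 to 190862045 (build hg19), 301 bp wide, with 5.98-fold enrichment in Dox replicate 1 and 5.53-fold in Dox replicate 2 and summits 31 bp apart. Its end was 182261 bp short of the end of the last site on that chromosome. The second, on chromosome 5 from 1073478 to 1074285, was enriched 4.98-fold in Dox replicate 1 and 5.23-fold in Dox replicate 2, with summits 27 bp apart. These 2 sites alone among the 1986 passed the q limit of 0.05 in each Dox library. The nearest PBS peak was 20.5 kb from the first and 25.1 kb from the second, both in PBS replicate 2.

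The third site, on chromosome 11 from 15095901 to 15096680, had 4.16-fold enrichment in Dox replicate 1 and 4.13-fold in Dox replicate 2, with summits 378 bp apart. A PBS replicate 2 peak of 2.36-fold lay 246 bp from its edge. The fourth, on chromosome 21 from 46773518 to 46774107, had 4.10-fold and 4.74-fold enrichment and summits 10 bp apart. The fifth, on chromosome 2 from 87655563 to 87656523, had the highest enrichment of Dox replicate 1 in the whole set, 7.05-fold, with 4.42-fold in Dox replicate 2. A PBS replicate 2 peak of 2.91-fold lay 3660 bp away.

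Of the other 5 leading sites, one spanned 676788 to 677799 of chromosome 5 and another 497027 to 497996 of chromosome 11. The remaining ones spanned 2496403 to 2496712 of chromosome 17, 55570768 to 55571104 of chromosome 20, and 41676036 to 41676599 of chromosome 8. Over the 10 leading sites the enrichment was 3.86-fold to 7.05-fold in Dox replicate 1 and 3.50-fold to 5.53-fold in Dox replicate 2, and widths were 301 to 1012 bp. Of the 10, 8 had summits at most 50 bp apart, 6 had a PBS peak within 10 kb and 0 had a site of all 4 libraries within 10 kb. The positions are on hg19, no annotation of that build was used here, and the sites are therefore given by position with no gene names. Whether they hold p53 elements was not analysed here.

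The sites were wider than the typical site and narrower than those of all 4 libraries. The median width was 440 bp (quartiles 349 and 568; range 208 to 2021), against 385 bp for the sites in both PBS libraries only, 822 bp for those of all 4 libraries and 286 bp over all 63890 sites. Wider than 1000 bp were 50 of the 1986 sites (2.52%, 1.91 to 3.30), 9 of 593 sites in both PBS libraries only (1.52%) and 1401 of 3840 sites of all 4 libraries (36.5%, 35.0 to 38.0). The width of a merged site depends on how many peaks went into it. At 1946 of the 1986 sites (98.0%) each Dox library gave exactly 1 peak. With the other Dox library left out, sites with a Dox peak and no PBS peak had a median width of 250 bp for Dox replicate 2. For Dox replicate 1 it was 256 bp. The peaks of the 1986 sites are counted among both.

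The peaks of the 2 Dox libraries had unlike widths within the same sites. The peaks of Dox replicate 1 had a median width of 343 bp there, against 282 bp over its whole list, and those of Dox replicate 2 had 268 bp, against 288 bp over its whole list. Dox replicate 1 had the wider stretch at 1316 sites (66.3%) and Dox replicate 2 at 661 (33.3%). The peaks of a site shared a median of 206 bp, or 90.0% of the shorter peak, and at 702 sites (35.3%) one peak lay inside the other. At 104 sites (5.24%) they shared at most 50 bp.

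The 3 widest sites were not among the 10 leading ones. The widest, on chromosome 22 from 39255597 to 39257617, was 2021 bp wide, joined 2 peaks of Dox replicate 1 to 1 of Dox replicate 2, and was enriched 3.36-fold in Dox replicate 1 and 3.44-fold in Dox replicate 2. Its edge was 147 bp from a PBS replicate 1 peak. The next spanned 10152505 to 10154117 of chromosome 2, enriched 2.92-fold and 2.95-fold, and 66309731 to 66311275 of chromosome 11, enriched 2.23-fold and 2.78-fold, Dox replicate 1 given before replicate 2. Their summits were 470 bp and 496 bp apart, the largest distances among the sites named by p or width, followed by the 378 bp of the site on chromosome 11 from 15095901 to 15096680.

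The summit, the position of the highest pile-up in a peak, lay within 200 bp between the Dox libraries at 1578 sites (79.5%). The summits of Dox replicates 1 and 2 were a median of 91 bp apart over the 1986 sites (quartiles 39 and 173). For the PBS pair at the sites in both PBS libraries only, the median was 78 bp (quartiles 35 and 163). At the sites of all 4 libraries it was 88 bp for the Dox pair and 78 bp for the PBS pair. Summits lay within 100 bp of each other at 53.5% of the 1986 sites (51.3 to 55.7), at 58.0% of the sites in both PBS libraries only (54.0 to 61.9) and at 53.8% of the sites of all 4 libraries for the Dox pair (52.2 to 55.3).

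The tails of these distributions differed more than the medians. Summits more than 300 bp apart made up 8.96% of the 1986 sites, 6.07% of the sites in both PBS libraries only and 19.8% of the wider sites of all 4 libraries for the Dox pair. Each summit lay inside the peak of the other library at 1201 of the 1986 sites (60.5%), and neither did at 234 (11.8%). At the sites of all 4 libraries the same shares for the Dox pair were 69.6% and 10.8%. The summit of Dox replicate 1 lay to the right of that of Dox replicate 2 at 1021 sites and to the left at 959, with a median signed difference of 5 bp.

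**Figure D3:**
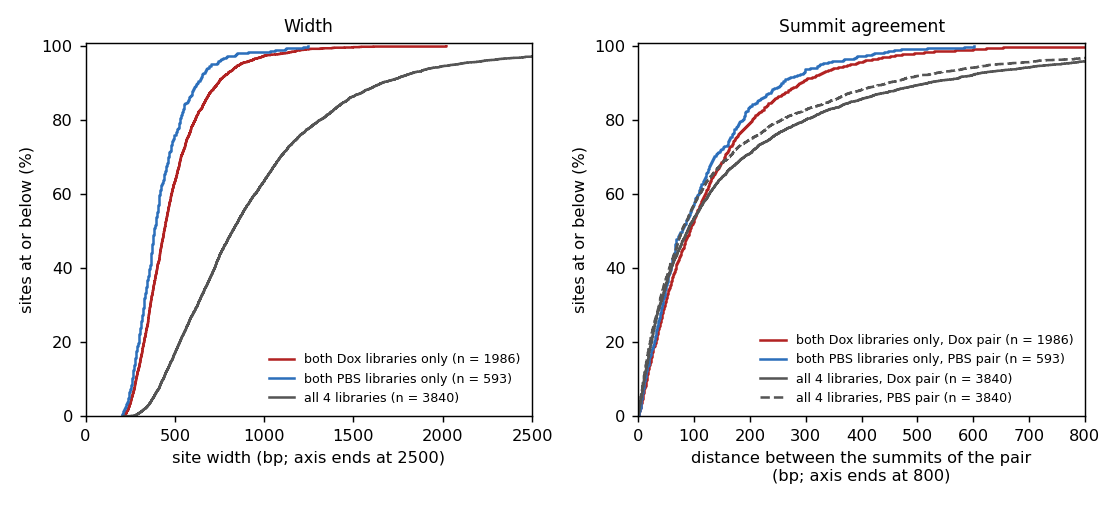
Cumulative share of sites (vertical, per cent) by site width (left, bp) and by the distance between the summits of the 2 libraries of a condition (right, bp), for sites in both Dox libraries only (red), both PBS libraries only (blue) and all 4 libraries (grey; dashed for the PBS pair). Median widths are 440, 385 and 822 bp, and median summit distances are 91, 78, 88 and 78 bp.

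How these sites compared with those of all 4 libraries depended on what was held equal. Among sites at most 350 bp wide, the median summit distance of the Dox pair was 48 bp at the 507 sites in both Dox libraries only and 21.5 bp at the 114 sites of all 4 libraries. Between 350 and 450 bp the medians were 82 and 34.5 bp, between 450 and 600 bp 123.5 and 58 bp, and above 600 bp 193.5 and 125 bp, in the same order. A site's width spans the merged peaks of 2 libraries in the first class and of 4 in the second. Equal site width therefore does not hold the Dox peaks equal, and whether the merge adds to the difference was not tested. Sites with at most 1 peak in each of the 4 libraries were also binned by the weaker −log10 p instead. The sites in both Dox libraries only then had the smaller median in 5 of 6 bins. Between 2 and 2.5 the medians were 89 bp at 901 sites in both Dox libraries only and 111 bp at 620 sites of all 4 libraries, and between 3 and 4 they were 57 and 63.5 bp. Equal strength does not hold width equal. Over all sites of these bins, with any number of peaks, median widths were 447 and 795.5 bp between 2 and 2.5. Between 3 and 4 they were 438.5 and 838 bp. In both classes the distance shrank with strength, to 29 bp (2 sites) and 25 bp (409 sites) from a −log10 p of 5 up.

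The authors' tables of peaks matched between replicates placed at least 1 Dox pair in each of the 1986 sites. The deposited IDR (irreproducible discovery rate), which is low where the ranks of a matched pair hold up across replicates, had a median of 0.445 over the sites, taking the best pair of each (quartiles 0.253 and 0.536; lowest 5.2e-05). It was at most 0.05 at 138 sites (6.95%, 5.91 to 8.15). For the PBS pairs at the sites in both PBS libraries only the share was 10.6% (8.39 to 13.4), and for the Dox pairs at 3764 sites of all 4 libraries it was 45.6% (44.1 to 47.2). For the PBS pairs at 3723 sites of all 4 libraries it was 18.7% (17.4 to 20.0). The share over all sites in both Dox libraries is not given here. Of the 10 leading sites, 8 had an IDR of at most 0.05. The pairs come from the same lists as the rule and give no separate evidence.

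A part of the set lay close to a PBS peak without overlapping it. The same gap over other sites without a PBS peak is not given here, so this nearness cannot be called particular to the set. The median gap to the nearest PBS peak was 7095.5 bp. It was at most 200 bp at 154 sites (7.75%), at most 500 bp at 328 (16.5%) and at most 1000 bp at 482 (24.3%, 22.4 to 26.2). At 856 sites (43.1%) no PBS peak lay within 10 kb, and the weaker −log10 p of those sites had a median of 2.06. For the sites in both PBS libraries only, set against Dox lists that together hold more peaks, 39.5% (35.6 to 43.4) lay within 1000 bp of a Dox peak.

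At the edge of the rule the choice turned on single bases. Among the sites just inside, those on chromosome 3 from 50301399 to 50301961 and from 52028533 to 52028845 and on chromosome 19 from 17419564 to 17420020 touched a PBS replicate 2 peak end to end with 0 bp between them. The PBS peaks had 3.57-fold, 3.47-fold and 2.38-fold enrichment in that order, and the strongest Dox peaks 2.29-fold to 3.70-fold. Just outside, the site on chromosome 5 from 60526329 to 60526728 was enriched 2.92-fold in Dox replicate 1 and 3.11-fold in Dox replicate 2 and shared 9 bp with a PBS replicate 2 peak of 2.91-fold. The sites on chromosome 1 from 1440898 to 1441547 and on chromosome 10 from 132723230 to 132724052 shared 13 and 14 bp with peaks of the same PBS library.

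Distances to the sites held by all 4 libraries were large for most of the set. The median gap was 72906 bp (quartiles 17384 and 248436), against 82070 bp for the sites in both PBS libraries only and 99269.5 bp for all sites outside the 4-library class, among which the 1986 are counted. Within 1 kb lay 121 sites (6.09%, 5.12 to 7.23), 7.25% of the sites in both PBS libraries only (5.43 to 9.63) and 4.09% of all sites outside the 4-library class (3.93 to 4.25). Within 10 kb the shares were 19.7% (18.0 to 21.5), 20.9% (17.8 to 24.4) and 14.7% (14.4 to 14.9) in the same order. Limiting every list to a −log10 p of at least 3 gave a share of 8.96% within 10 kb, over the 569 sites that then met the rule. That limit removed weaker PBS peaks and changed the sites counted as 4-library. Most of the 569 lay outside the set described here. Of the 1986 sites, 134 had a weaker −log10 p between 3 and 4, 22 between 4 and 5 and 3 from 5 up. Of the 121 sites within 1 kb, 114 also lay within 1 kb of a PBS peak.

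The 121 sites beside a 4-library site were set against the others. Their median width was 466 bp, against 439 bp for the sites farther away, their weaker −log10 p had a median of 2.04, against 2.03, and their summits were a median of 109 bp apart, against 90 bp. These differences were not tested. The 123 flanked sites of all 4 libraries had a median width of 969 bp, against 818 bp for those not flanked, and a median −log10 p of 4.08 in Dox replicate 1 in both cases. The nearest cases were the site on chromosome 19 already named, which touched its neighbour, and those on chromosome 8 from 145652745 to 145653370 and chromosome 17 from 21220640 to 21221056, with gaps of 5 and 8 bp. The farthest lay on chromosome 9 from 13102 to 13635 and from 6757532 to 6757921 and on chromosome 4 from 142053119 to 142053623, with gaps of 19.0, 12.3 and 7.98 Mb.

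**Figure D4:**
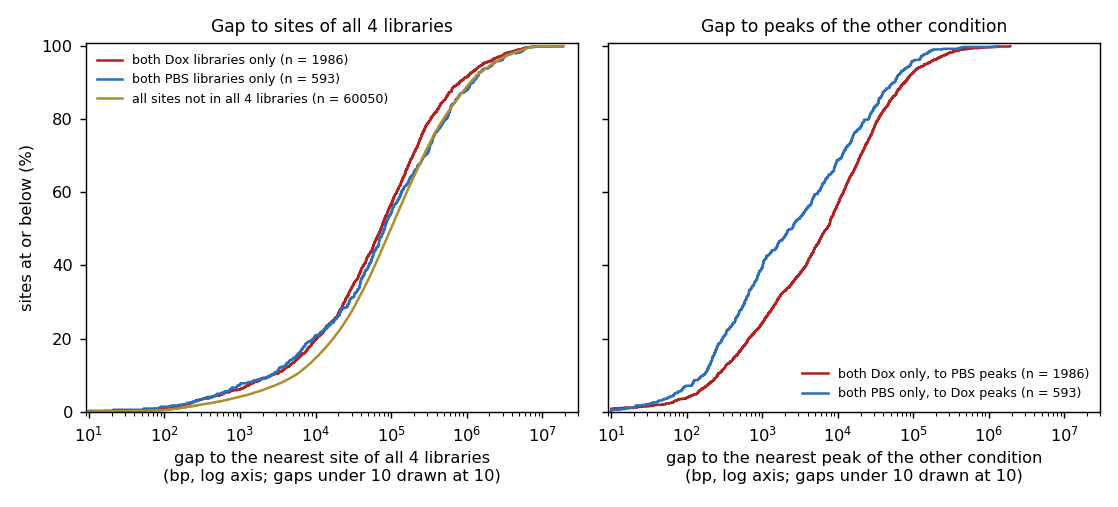
Cumulative share of sites (vertical, per cent) by the gap to the nearest site of all 4 libraries (left) and to the nearest peak of the other condition (right), in bp on a log axis. The median gap to a 4-library site is 72906 bp for sites in both Dox libraries only (red), 82070 bp for both PBS libraries only (blue) and 99269.5 bp for all sites outside the 4-library class (gold).

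By chromosome the set was largest where sites were most numerous. It held 265 sites on chromosome 1, 171 on chromosome 19 and 138 on chromosome 17, against 15 on chromosome 13 and 20 on chromosome 18. As a share of all sites of a chromosome it ran from 2.00% on chromosome 13 (1.22 to 3.28) to 3.79% on chromosome 19 (3.27 to 4.38), around the 3.11% of the genome. The intervals of chromosome 19 and of chromosome 16 (3.14 to 4.47) lay above that share. Chromosomes 15, 16, 11 and 22 followed chromosome 19, with 3.74%, 3.74%, 3.66% and 3.65%. The intervals treat sites as independent and cover counting error only.

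**Figure D5:**
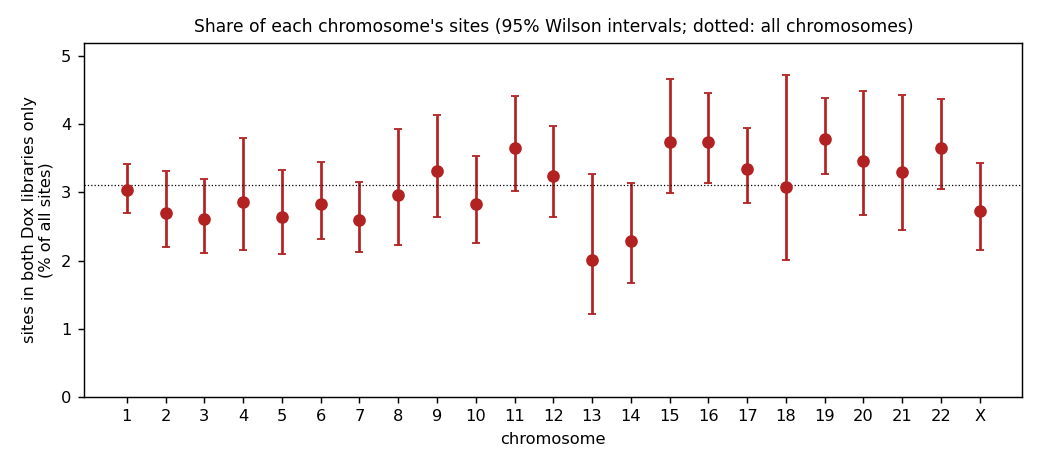
Sites in both Dox libraries only as a share of all sites of each chromosome (vertical, per cent, with 95% Wilson intervals), by chromosome (horizontal); the dotted line is the share over all chromosomes, 3.11%. The shares run from 2.00% on chromosome 13 to 3.79% on chromosome 19.

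The sites gathered where other sites, all patterns pooled, were dense. Of 2682 windows of 1 Mb with any site, 901 held at least 1 of the set, 452 held exactly 1 and 92 held 5 or more. The 10% of windows richest in other sites held 50.4% of the set, 39.8% of the sites in both PBS libraries only, 51.3% of the sites of all 4 libraries and 42.9% of all sites outside the set. The other classes helped to rank the windows and the set did not. Sites with a peak in Dox replicate 1 alone made up 48.5% of all sites, and the sites in both PBS libraries only have no peak in that list. These shares are therefore not on one footing. Within 5 Mb of the first or last site of a chromosome lay 445 sites (22.4%), against 15.0% of the sites in both PBS libraries only, 22.0% of the sites of all 4 libraries and 18.8% of all sites outside the set.

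The window with most of them was chromosome 16 from 30 to 31 Mb, where 26 of 392 sites (6.63%) belonged to the set, 5 were in both PBS libraries only and 33 were in all 4 libraries. The enrichment of the 26 was 2.11-fold to 3.95-fold in Dox replicate 1 and 1.81-fold to 3.27-fold in Dox replicate 2, and their summits were a median of 105 bp apart. The next windows were chromosome 22 from 38 to 39 Mb, with 14 of 276 sites (5.07%), and chromosome 17 from 7 to 8 Mb, with 11 of 187 (5.88%). These windows were picked for their counts, so the shares are descriptions.

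Most of the sites stood alone among their kind. Joined at gaps of at most 10 kb, 263 sites (13.2%, 11.8 to 14.8) fell into 122 clusters, 106 of them pairs and 16 of 3 or 4 sites. Of the sites in both PBS libraries only, a smaller set, 9.11% (7.05 to 11.7) were clustered at that gap, and of the sites of all 4 libraries, a larger one, 26.6% (25.2 to 28.0), in clusters of up to 28. At gaps of at most 1 kb 4.58% of the set was clustered, and at gaps of at most 100 kb 43.5%. The number of sites in a class sets part of these shares.

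The 3 largest clusters held 4 sites each. On chromosome 10, from 46962386 to 46975547, the 4 sites had 2.29-fold to 3.05-fold enrichment in Dox replicate 1 and 2.44-fold to 3.00-fold in Dox replicate 2, with 0 sites of all 4 libraries between them. On chromosome 17, from 16347476 to 16361763, the ranges were 2.77-fold to 3.06-fold and 2.30-fold to 2.95-fold, with 1 site of all 4 libraries in the span. On chromosome 19, from 36761169 to 36777407, they were 2.56-fold to 4.24-fold and 2.74-fold to 3.76-fold, with 4 such sites. Of these 12 sites, 10 lay within 1 kb of a PBS peak and the other two within 1767 bp, and their Dox summits were 0 to 459 bp apart.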

How the data were processed

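Per the submitters' processing notes, the authors used BWA, MACS2 and the hg19 build. Tool versions and read filters were not given in the sources used here. Each ChIP library has 1 list deposited by the authors, with a threshold of p under 0.05 in the peak names. Each deposited peak carries a fold enrichment, a p-value and a q-value as −log10, and a summit that lies between its start and end. The authors also deposited tables of matched peak pairs with the IDR, a fraction, per the file headers. The 4 input samples were not analysed here, and read depth is not given in the lists.

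Peaks sharing at least 1 bp were merged. A library's summit, p and fold at a site are those of its peak with the smallest p. Gaps run edge to edge. Wilson intervals (95%) treat sites as independent and cover counting error only. Named sites were the 10 with the smallest p in the weaker Dox library, the 3 widest, nearest and farthest, those at the edge of the rule, the widest-set summits and the largest clusters. Members and measures were chosen with earlier results of these data known. With 2 libraries per condition and members chosen by presence, no test was made. On 6900 planted sites the merging steps put 0 in a wrong pattern and 0 summit or neighbour distances were wrong. Software comprised matplotlib 3.10.9, pandas 2.3.3, numpy 2.4.6 and scipy 1.17.1 under Python 3.11.15.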

Additional observations from a re-analysis of the deposited data

How the results depend on the processing

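Values are given as number of sites, median width, median summit distance and share within 10 kb of a site of all 4 libraries, which were 1986, 440 bp, 91 bp and 19.7%; a value counted as moved outside its 95% interval or, for the number, beyond 1.5 times. Counting a PBS peak within 500 or 1000 bp as present left 1658 and 1504 sites and moved only the share, to 15.7% and 13.2%. Requiring the Dox peaks to share at least 50% of the shorter one left 1674 sites with 426 bp and 75 bp. Limiting all lists to a −log10 p of at least 2 gave 464 bp and 14.1%, and of at least 3 gave 569 sites, 557 bp, 73 bp and 8.96%. With Dox peaks at a −log10 q of at least 1.3, the 2 remaining sites had 554.5 bp, 29 bp and 0%. Equal list lengths gave 791 sites, 496 bp, 76 bp and 14.9%. Leaving out each library in turn gave 2495 to 33155 sites, 250 to 478 bp, 86 to 92 bp (PBS libraries only) and 17.1% to 28.4%. Those shares were counted to sites held by all the remaining libraries, so they are not on one footing with 19.7%. The share within 1 kb and 100 kb was 6.09% and 56.8%, and the share in clusters, 13.2% at 10 kb, was 4.58% at 1 kb and 43.5% at 100 kb. The number fell by construction with stricter Dox lists and rose with fewer PBS peaks. Dropping sites within 1000 bp of a PBS peak also dropped 114 of the 121 sites within 1 kb of a 4-library site, because 4-library sites hold PBS peaks. Limiting or shortening the lists also changed which sites counted as held by all 4 libraries. Where PBS peaks were cut as well, sites outside the 1986 could meet the rule. The values at those settings describe the sites that then met it. The cause of the other changes was not tested. No paired analysis was possible because the results come from no test, and each site of the set takes its place from both replicates of both conditions at once. Absence means no peak at p under 0.05 in a list of unknown read depth, so a low PBS signal cannot be told from none.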
